A study of Mus musculus with 6 samples.

Results

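Genes of acetylcholine signalling and of the habenula, 10 in all, were followed in ribosome-bound RNA from mouse thalamus: the muscarinic receptor genes Chrm1, Chrm2, Chrm3 and Chrm4, the genes for acetylcholine synthesis, transport and breakdown Chat, Slc18a3, Slc5a7 and Ache, and the habenula genes Gpr151 and Nwd2. They were taken by symbol from the count files, which held all 10 of them among 32531 named genes, and 10 of 10 passed the filter on low counts. The libraries came from adult, untreated control mice of the TRAP line Cbln1-EGFP/Rpl10a (NIDA030), and every sample of both groups carried this transgene. TRAP, translating ribosome affinity purification, recovers RNA on ribosomes whose protein Rpl10a is tagged with green fluorescent protein. The 3 immunopurified libraries (IP) hold the RNA recovered with antibodies against the tag, and the 3 Input libraries those that the labels call input, although the molecule label is ribosome-bound RNA in all 6. The labels name the line after Cbln1, give neither sex nor exact age, and do not say how the transgene was built, which cells carried the tag, or whether a replicate was 1 animal or a pool. P-values therefore measure only the spread between these libraries.

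Acetylcholine is made from choline by choline acetyltransferase (Chat), loaded into vesicles by the vesicular transporter Slc18a3, and broken down by acetylcholinesterase (Ache), after which choline is taken back up by the transporter Slc5a7. The muscarinic receptors are G-protein-coupled receptors: those of Chrm1 and Chrm3 couple to Gq and phospholipase C and close M-type potassium channels, and those of Chrm2 and Chrm4 couple to Gi and can open inward rectifier potassium channels. Thalamic relay neurons receive cholinergic fibres from the brainstem, whereas cell bodies that make acetylcholine lie close to the thalamus in the medial habenula. Gpr151, an orphan receptor, and Nwd2 are commonly used to mark habenular neurons.

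Assigned counts ran from 23929070 in Input replicate 1 to 57385828 in IP replicate 1. Levels are given as CPM, counts relative to library size, after TMM scaling (trimmed mean of M-values). Genes of thalamic glutamatergic neurons were detected in every library: 5 of 7 were higher and 1 lower in IP, with summed levels of 3920 to 4670 CPM in IP and 2670 to 3100 CPM in Input. Markers of other cells were lower to differing extents: 6 of 6 astrocyte, 6 of 6 oligodendrocyte, and 5 of 6 GABAergic and reticular markers. Of those tested, 4 of 6 microglia and 4 of 5 endothelial markers were lower. So were 2 of 4 striatal and 2 of 5 choroid plexus and ependymal markers. Cortical markers had 2 lower and 1 higher of 5 tested. Over all genes tested, 24.3% were lower and 23.3% higher. Both libraries of replicate number 1 stood apart in the summed level of choroid plexus and ependymal markers. It was 24.0 CPM in Input replicate 1, against 520 and 586 CPM in Input replicates 2 and 3. In IP it was 5.54 CPM in replicate 1, against 49.2 and 44.3 CPM in replicates 2 and 3. Ttr alone had 2.78, 477 and 542 CPM in Input replicates 1, 2 and 3, whereas the ependymal marker Foxj1 had 14.8, 14.2 and 16.3 CPM. With the replicate number as a block in the fit, 5 of 5 markers of this list were lower. Between Input libraries, fewer cells of a type and less RNA per cell cannot be told apart in such bulk RNA. Between IP and Input, a level also depends on which ribosomes carried the tag, and these parts cannot be separated here.

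The bases before the RefSeq start sites of 4 genes are shown because Chat and Slc18a3 share a locus and, like Slc5a7, had lower mean levels in IP, while Ache was higher. Sequences are from RefSeq (GRCm38.p6), 5′ to 3′ on the strand of the gene, from the 250 bases before each start site and without bases that GENCODE annotates as exon. RefSeq windows were found for 8 of the 10 genes. The Ache stretch lies before the RefSeq start site but inside the GENCODE span of Ache, which starts at 137287519. The Slc18a3 stretch lies inside the span of Chat. Capitals mark matches on either strand to the GC box GGGCGG, the CCAAT box CCAAT, the E-box CAGCTG and the TATA box TATAAA.
Chat, chr14:32465990-32466159, minus strand: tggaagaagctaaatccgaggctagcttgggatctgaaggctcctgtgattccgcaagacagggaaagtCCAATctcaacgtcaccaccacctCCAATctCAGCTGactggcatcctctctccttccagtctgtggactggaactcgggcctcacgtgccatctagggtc
Slc18a3, chr14:32464851-32465041, minus strand: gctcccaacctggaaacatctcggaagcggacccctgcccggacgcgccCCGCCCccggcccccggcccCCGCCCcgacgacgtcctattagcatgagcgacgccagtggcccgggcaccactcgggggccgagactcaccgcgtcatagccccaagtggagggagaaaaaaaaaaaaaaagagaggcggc
Slc5a7, chr17:54299035-54299284, minus strand: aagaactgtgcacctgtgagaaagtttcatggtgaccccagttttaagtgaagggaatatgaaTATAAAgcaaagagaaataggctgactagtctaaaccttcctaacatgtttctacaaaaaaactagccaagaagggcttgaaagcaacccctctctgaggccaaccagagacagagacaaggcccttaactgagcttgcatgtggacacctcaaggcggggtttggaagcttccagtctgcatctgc
Ache, chr5:137288058-137288253, plus strand: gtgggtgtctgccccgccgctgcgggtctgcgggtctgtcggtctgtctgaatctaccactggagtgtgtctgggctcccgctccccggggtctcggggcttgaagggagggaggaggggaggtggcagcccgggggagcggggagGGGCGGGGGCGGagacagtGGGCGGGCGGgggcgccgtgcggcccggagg
The Chat window held 2 CCAAT boxes and 1 E-box, that of Slc18a3 held 2 GC boxes, that of Slc5a7 held 1 TATA box, and that of Ache held 4 GC boxes, some overlapping each other. Among 32851 RefSeq windows of the same length, 32.7% held a GC box, 33.8% a CCAAT box, 13.0% this E-box and 12.4% a TATA box. None of these motifs was in the windows of Chat, Slc18a3 and Slc5a7 alike, and a match describes the sequence only. GC content was 73.6% for the Ache window, 66.0% for Slc18a3, 54.8% for Chat and 45.6% for Slc5a7.

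The single comparison of the design, IP against Input, asks which of these RNAs were enriched on tagged ribosomes. All 4 muscarinic receptor genes listed and Ache were higher in IP, between 2.20-fold (Chrm2 and Ache) and 4.68-fold (Chrm4). Chat, Slc5a7 and Gpr151 were lower, by 4.06-fold, 5.36-fold and 2.60-fold. Slc18a3 and Nwd2 did not pass the test. With edgeR's quasi-likelihood test at an adjusted p of 0.05, 5 of the 10 genes were thus higher and 3 lower, beside 23.3% and 24.3% of the 16898 genes tested. With the replicate number as a block, 4 were higher and 3 lower, beside 22.4% and 23.9% of all genes tested. Levels in IP and Input did not overlap for 8 of the 10, where 61.6% of all genes tested did not overlap. Their median log2 fold change was 0.60, against -0.07 over all genes tested. The count of higher genes ran from 3 to 5, and that of lower genes from 0 to 3, when 1 library or 1 replicate number was left out, and the lowest counts came without replicate number 2, where 3 were higher and 0 lower (2 lower at an unadjusted p under 0.05). Without Input replicate 1, 3 were higher. Without Input replicate 2, 3 were higher and 1 lower, and 1 was lower without Input replicate 3 and without replicate number 3.

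**Figure D1:**
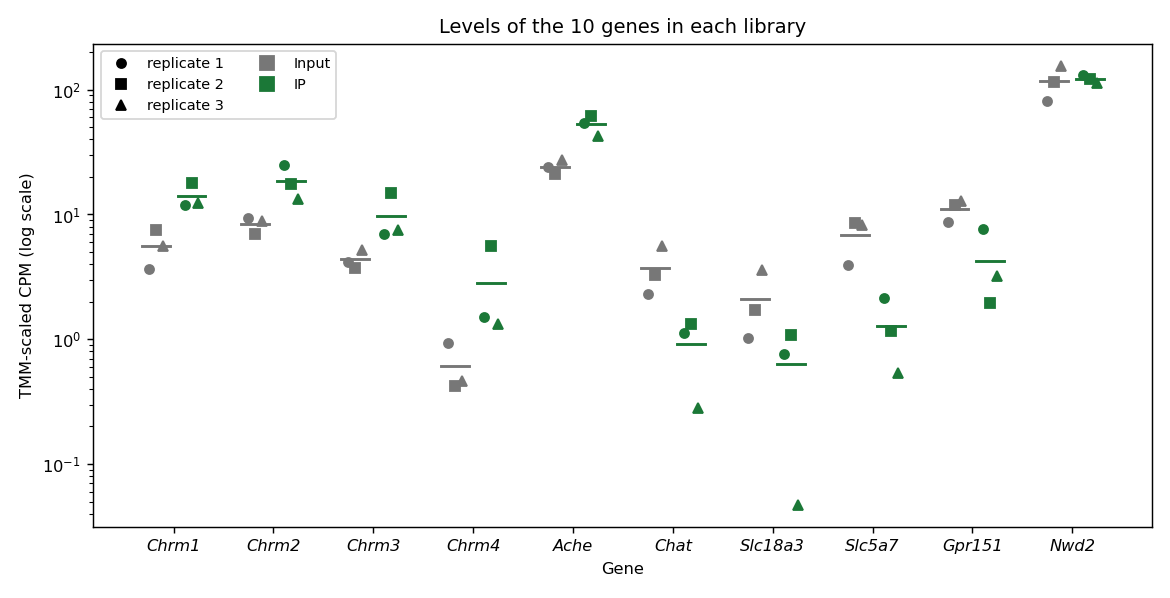
TMM-scaled CPM (log axis) of each gene in the 3 Input libraries (grey) and 3 IP libraries (green), with symbols for replicate numbers and bars for group means. The receptor genes and Ache lie higher in IP, Chat, Slc5a7 and Gpr151 lie lower, and Slc18a3 and Nwd2 overlap between the groups.

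Chrm1 and Chrm3, the receptors that couple to Gq, were both higher in IP. Chrm1 (chromosome 19, 8663789 to 8683587, mm10) stood at 3.68, 7.53 and 5.59 CPM for Input 1, 2 and 3, and at 11.9, 18.0 and 12.4 CPM for IP in the same order of replicates, which is kept from here on. The groups did not overlap, and IP was 2.50-fold higher (log2 fold change 1.32, SE 0.29, edgeR adjusted p = 0.00524), a call that held in all 17 alternatives run for it. Exons of Chrm1 share 329 bases with the opposite-strand Gm22820, which had no line under its name in the count files, and with no strand setting given, reads there cannot be told apart. Chrm3 (chromosome 13, 9875486 to 10360847) had 4.19, 3.74 and 5.15 CPM in Input and 6.98, 14.9 and 7.51 CPM in IP. IP replicate 2 was the highest library, and the groups again did not overlap. The log2 fold change of Chrm3 was 1.17 (SE 0.33, edgeR adjusted p = 0.0173). The call for Chrm3 ended when Input replicate 1 (edgeR adjusted p = 0.0619) or 2 (0.0698) or the replicate number 2 (log2 fold change 0.64, adjusted p = 0.166) was left out, and under library totals (0.0541).

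Chrm2 and Chrm4, the receptors that couple to Gi, were higher as well, with very different counts. Chrm2 (chromosome 6, 36388084 to 36528414) had 9.32, 7.01 and 8.92 CPM in Input and 24.7, 17.5 and 13.3 CPM in IP. Each IP library exceeded each Input library, with a log2 fold change of 1.14 (SE 0.25, edgeR adjusted p = 0.00487) that held its call in all 17 alternatives. Its exons share 142 bases with the opposite-strand RNA 9330158H04Rik, which was also higher in IP (9.13 CPM against 3.48 CPM in Input, log2 fold change 1.38), and without a stated strand setting reads of the shared bases cannot be told apart.

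Chrm4 (chromosome 2, 91927249 to 91928688) had the fewest counts of the 4 receptor genes, with 24, 22 and 24 counts in Input and 75, 258 and 56 counts in IP. These are 0.940, 0.424 and 0.459 CPM in Input and 1.50, 5.62 and 1.32 CPM in IP, and IP replicate 2 exceeded the other 2 IP libraries together. The log2 fold change was 2.23 (SE 0.74, edgeR adjusted p = 0.0336). The call was lost in 9 of 17 alternatives. With the replicate number as a block it was 1.94 (adjusted p = 0.0844), and without IP replicate 2 it was 1.24 (0.151). Without Input replicates 1, 2 or 3 the adjusted p was 0.0531, 0.118 and 0.116, without replicate number 2 it was 0.379 (log2 fold change 1.03) and without replicate number 3 it was 0.0807. Without replicate number 1 the log2 fold change was 2.98. In the same IP replicate 2 the striatal markers, whose cells are rich in Chrm4, summed to 33.2 CPM, beside 24.6 and 31.6 CPM in IP replicates 1 and 3. Of the dopamine receptor genes of that list, Drd1 had 0.02, 0.218 and 0.0706 CPM in IP, highest in replicate 2, and 1.84, 1.64 and 2.45 CPM in Input. Drd2 had 3.12, 2.62 and 2.14 CPM in IP, highest in replicate 1. The part of these markers in the Chrm4 level was not tested.

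Whether the receptors were enriched to different degrees was asked from ratios between 2 receptor genes within a library, which do not depend on the scaling between libraries. In none of the 6 pairs did the ratios separate IP from Input. The largest shifts were for Chrm3 to Chrm4, with a mean log2 ratio of 2.04 ± 0.57 for IP libraries and 2.90 ± 0.69 for Input libraries (SD over 3 libraries each, exact two-sided permutation p = 0.3, Benjamini-Hochberg over the 6 pairs 0.84), and for Chrm2 to Chrm4, with 3.0 ± 1.23 and 3.85 ± 0.51 (exact permutation p = 0.5). The smallest was Chrm2 to Chrm3, with 0.96 ± 0.80 and 0.95 ± 0.18, a difference of 0.01 (SE 0.47). With 3 libraries against 3 the smallest p this test can give is 0.1, so that no difference in enrichment of any size could pass 0.05.

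Per exon length, Chrm2 had the highest mean level of the 4 receptor genes in both groups, and the ranges of neighbouring receptors overlapped. In IP the means were 3.05 ± 0.948 CPM per kb for Chrm2, 2.17 ± 0.523 for Chrm1, 1.95 ± 1.69 for Chrm4 and 1.57 ± 0.709 for Chrm3 (SD, n = 3). In Input, Chrm2 had 1.39 ± 0.204 CPM per kb, Chrm1 0.863 ± 0.296, Chrm3 0.697 ± 0.115 and Chrm4 0.422 ± 0.200. Lengths are GENCODE exon unions. That of Chrm4, 1.44 kb, holds a single exon, and its level per kb would be lower if the authors counted over a longer model.

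**Figure D2:**
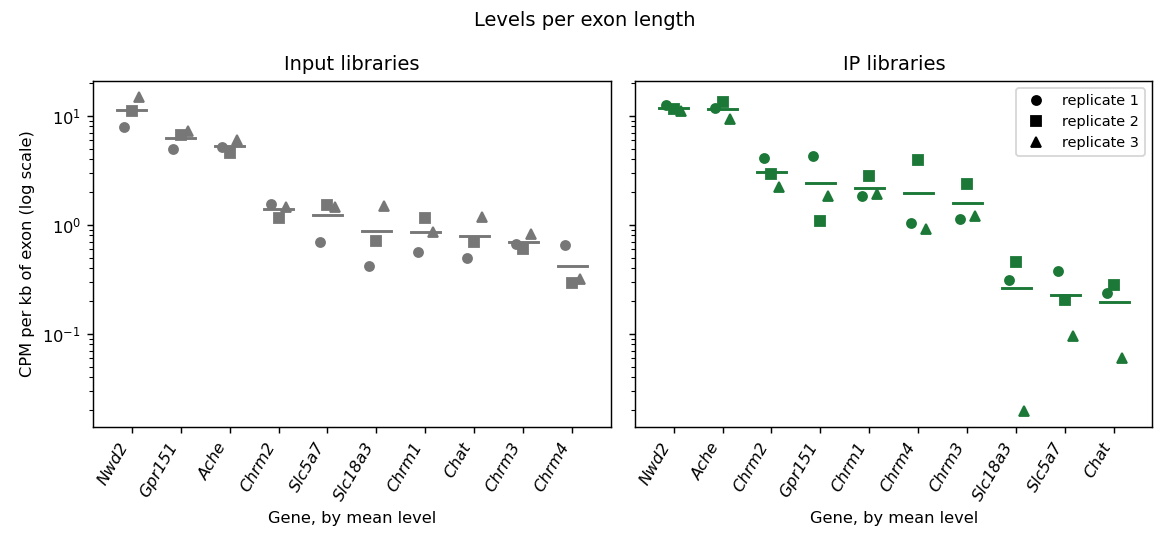
CPM per kb of exon (log axis) for each gene in the Input libraries (left, grey) and the IP libraries (right, green), ordered by group mean, with bars for means. In IP, Nwd2 and Ache lie above all other genes shown, and Slc18a3, Slc5a7 and Chat lie below the lowest receptor library.

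Ache, whose product ends the action of acetylcholine at synapses, rose with the smallest relative error of the 8 genes called. It had 23.9, 21.1 and 27.4 CPM in Input and 54.5, 61.8 and 42.9 CPM in IP. The lowest IP library lay above the highest Input library, and the log2 fold change was 1.14 (SE 0.16, edgeR adjusted p = 5.19e-04), called in all 17 alternatives. Ache lies on chromosome 5 (137287519 to 137294466) and shares 98 exonic bases with an opposite-strand long non-coding gene that had no line under its name in the count files. At 11.5 ± 2.07 CPM per kb in IP (SD, n = 3), its level overlapped that of Nwd2 and exceeded that of each receptor gene in every IP library.

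Of the 3 genes that define a neuron as cholinergic, Chat and Slc5a7 fell and Slc18a3 did not pass the test. Chat had 2.31, 3.25 and 5.55 CPM in Input and 1.12, 1.33 and 0.282 CPM in IP, which in counts are 59, 169 and 290 against 56, 61 and 12. The groups did not overlap, and IP replicate 3 was the lowest library. The log2 fold change was -2.02 (SE 0.65, edgeR adjusted p = 0.0286). The call for Chat was lost in 5 alternatives, which left out Input replicate 2 (adjusted p = 0.0713), Input replicate 3 (-1.61, adjusted p = 0.162), or the replicate number 1 (0.0502), 2 (0.0659) or 3 (-1.17, adjusted p = 0.189).

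Slc5a7, the choline transporter of cholinergic terminals and cell bodies, had 3.92, 8.53 and 8.19 CPM in Input and 2.14, 1.16 and 0.541 CPM in IP. Input replicate 1 was the lowest Input library and IP replicate 1 the highest IP library. Its log2 fold change of -2.42 (SE 0.54, edgeR adjusted p = 0.00522) was the largest decrease among the 10 genes. It was -3.01 without IP replicate 1 and -3.29 without replicate number 1, and of the 17 alternatives only the fit without replicate number 2 ended the call (-2.16, adjusted p = 0.0630). Within a library, the log2 ratio of Slc5a7 to Ache was -1.88 ± 0.66 for Input and -5.56 ± 0.82 for IP (SD over 3 libraries each, exact two-sided permutation p = 0.1, the smallest possible, and 0.15 over the 3 ratios chosen after the values were seen). Slc5a7 was lower and Ache higher in every IP library than in every Input library. Their ratio therefore had to separate the groups, and its p adds nothing to the 2 calls.

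Slc18a3, the vesicular acetylcholine transporter, lies entirely within the first intron of Chat on the same strand of chromosome 14. Chat spans 32408203 to 32465989 and Slc18a3 spans 32462438 to 32464850, their starts 1139 bases apart, and they share 0 exonic bases. Slc18a3 had 26, 89 and 186 counts in Input and 38, 50 and 2 counts in IP, or 1.02, 1.71 and 3.56 CPM against 0.760, 1.09 and 0.0471 CPM. IP replicates 1 and 2 fell close to or within the Input range and IP replicate 3 far under it. The log2 fold change was -1.73 (SE 0.95, edgeR adjusted p = 0.166), and no alternative gave a call. The log2 ratio of Slc18a3 to Chat was -1.05 ± 1.11 for IP and -0.91 ± 0.26 for Input (SD over 3 libraries each, exact permutation p = 1.0), a difference of -0.14 that was 0.49 without IP replicate 3.

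**Figure D3:**
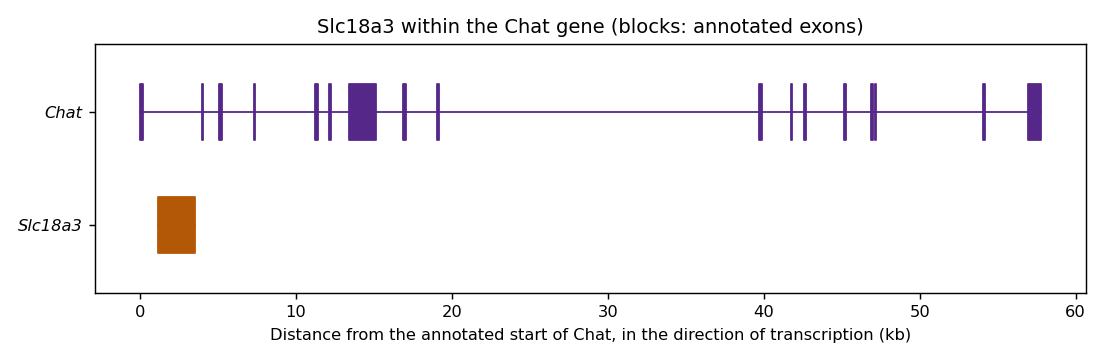
Annotated exons (blocks) of Chat and Slc18a3 by distance in kb from the start of Chat, in the direction of transcription. The single exon of Slc18a3 lies in the first intron of Chat. That intron has 3764 bases, and the whole Chat gene spans 57.8 kb.

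Other genes around acetylcholine were lower or not called. Of 12 such genes 10 were tested, 7 of which fell and 0 rose in edgeR's test (0 also at an unadjusted p under 0.05 and by DESeq2 and limma-voom). This stands beside 24.3% lower and 23.3% higher of all genes tested. The 10 had a median log2 fold change of -1.73 against -0.07 over all genes tested. The most changed were butyrylcholinesterase, Bche, a second enzyme that splits acetylcholine (5.37, 4.79 and 4.34 CPM in Input and 0.80, 0.0436 and 0.212 CPM in IP, log2 fold change -3.76, SE 0.83), and Chrm5. Bche was -5.22 without IP replicate 1, and its call was lost without replicate number 3 (adjusted p = 0.0527). The list's count of lower genes was 3 when any 1 Input library or the replicate number 3 was left out, and 1 gene was higher without IP replicate 1. Colq, which anchors acetylcholinesterase at the neuromuscular junction and was not called here (log2 fold change 2.16, SE 0.97, adjusted p = 0.0951), had the largest increase among those not called.

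Chrm5, the remaining muscarinic receptor gene, went opposite to the other 4. It had 58, 91 and 139 counts in Input and 12, 0 and 19 counts in IP, or 2.27, 1.75 and 2.66 CPM against 0.240, 0 and 0.447 CPM. Every IP library lay below every Input library, with a log2 fold change of -3.27 (SE 1.07, edgeR adjusted p = 0.0306). The call for Chrm5 ended on leaving out Input replicate 1 (adjusted p = 0.0921), 2 (0.0739) or 3 (0.106), or the replicate number 1 (0.113) or 3 (0.0828), with log2 fold changes from -4.15 (without IP replicate 3) to -2.69 when 1 library or replicate number was left out. Choline kinase Chka (log2 fold change -2.21, SE 0.17), the choline transporters Slc44a1 (-1.87) and Slc44a5 (-1.59), Prima1, which anchors acetylcholinesterase in brain membranes (-1.03), and the vesicular carrier Slc10a4 (-2.28) also fell. Chka and Slc44a1 act in choline and phospholipid metabolism of many cells.

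Markers of cholinergic neurons outside the members were few in these libraries. Of 8 such genes, 4 were tested and 3 fell, where 24.3% of all genes tested were lower. These 3 were Isl1 (3.41, 1.81 and 1.76 CPM in Input and 0, 0.0218 and 0.0235 CPM in IP), Ngfr and Slc10a4, the last also counted above. Gbx1 had 0 counts in every library, and Lhx8 was too low for a test. With the replicate number as a block 2 fell (Ngfr, adjusted p = 0.0737), and 1 fell when any 1 Input library or the replicate number 3 was left out. The summed level of the list was 8.59 to 10.2 CPM in Input and 0.518 to 2.57 CPM in IP.

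The 2 habenula genes did not move together. Gpr151 (chromosome 18, 42577881 to 42579652) had 8.70, 11.8 and 12.9 CPM in Input and 7.64, 1.94 and 3.22 CPM in IP. IP replicate 1 lay just under the lowest Input library and the other 2 IP libraries far below. The log2 fold change was -1.38 (SE 0.45, edgeR adjusted p = 0.0303), and it was -2.10 without IP replicate 1 and -2.25 without replicate number 1. The call for Gpr151 ended on leaving out IP replicate 3 (adjusted p = 0.0897), Input replicate 1 (0.0514), 2 (0.0860) or 3 (0.0964), or the replicate number 2 (0.138) or 3 (0.226).

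Nwd2 (chromosome 5, 63649102 to 63810546) had the highest mean level per exon length of the 10 genes in both groups (11.7 ± 0.836 CPM per kb for IP and 11.3 ± 3.54 for Input, SD, n = 3), overlapping Ache in IP. Its exons share 1219 bases with the opposite-strand Gm9954, which likewise had no line under its name, and reads there cannot be told apart either. Its levels were 81.4, 116 and 155 CPM in Input and 132, 121 and 114 CPM in IP. The IP libraries lay within the Input range, with a log2 fold change of 0.06 (SE 0.20, edgeR adjusted p = 0.834). Its sign turned under upper-quartile scaling (-0.12) and library totals (-0.19), which moved the median of all genes tested from -0.07 to -0.25 and -0.31. Leaving out Input replicate 1 (-0.14) or the replicate number 1 (-0.20) turned it as well. Within a library, the log2 ratio of Gpr151 to Nwd2 was -3.37 ± 0.19 for Input and -5.07 ± 0.93 for IP (SD over 3 libraries each). The groups did not overlap (exact two-sided permutation p = 0.1, and 0.15 over the 3 ratios chosen after the values were seen).

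**Figure D4:**
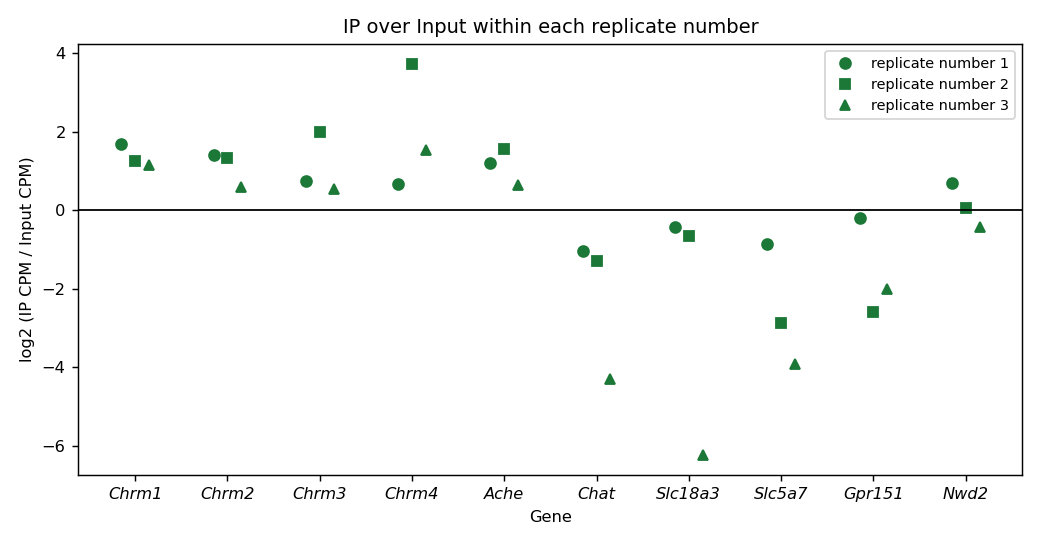
Log2 ratio of IP to Input CPM of each gene within replicate numbers 1, 2 and 3 (symbols), where 0 means equal levels. The receptor genes and Ache lie above 0 in all 3, Chat, Slc18a3, Slc5a7 and Gpr151 lie below, with replicate 1 closest to 0 for Slc5a7 (-0.87) and Gpr151 (-0.19), and Nwd2 lies on both sides.

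Other habenula markers were mostly lower in IP. Of 9 medial habenula markers 8 fell and 1 rose, beside 24.3% lower and 23.3% higher of all genes tested. The 9 had a median log2 fold change of -1.91, and 0 of them were at 0 counts in either group. Their summed level was 291 to 379 CPM in Input and 298 to 463 CPM in IP, where Etv1 alone held 225 to 355 CPM. The nicotinic receptor subunit Chrnb3 (-3.68) fell most and Lrrc55 (-0.79) least, and Etv1, a transcription factor, rose (2.07, SE 0.16). The tachykinin gene Tac2 had 22.4, 25.0 and 34.3 CPM in Input and 16.7, 4.25 and 9.51 CPM in IP, with IP replicate 1 the highest IP library, as for Gpr151 and Slc5a7. Pou4f1, a transcription factor of habenular neurons, had 13.9, 11.2 and 7.72 CPM in IP and 15.9, 25.1 and 28.9 CPM in Input. The list did not share 1 order of IP libraries. The nicotinic receptor subunits Chrna3 (4.26 CPM) and Chrnb4 (6.66 CPM) were highest in IP replicate 3, and Chrnb3 (1.63 CPM) in IP replicate 2. The remaining markers of this list were highest in IP replicate 1. Of 7 genes used as lateral habenula markers 4 fell and 2 rose (median -1.21), among them the peptide gene Sst (-1.80) lower and the protocadherin Pcdh10 (0.84) higher. The part of dissected habenular tissue in the levels of Chat, Slc5a7, Slc18a3 and Gpr151 was not tested.

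**Figure D5:**
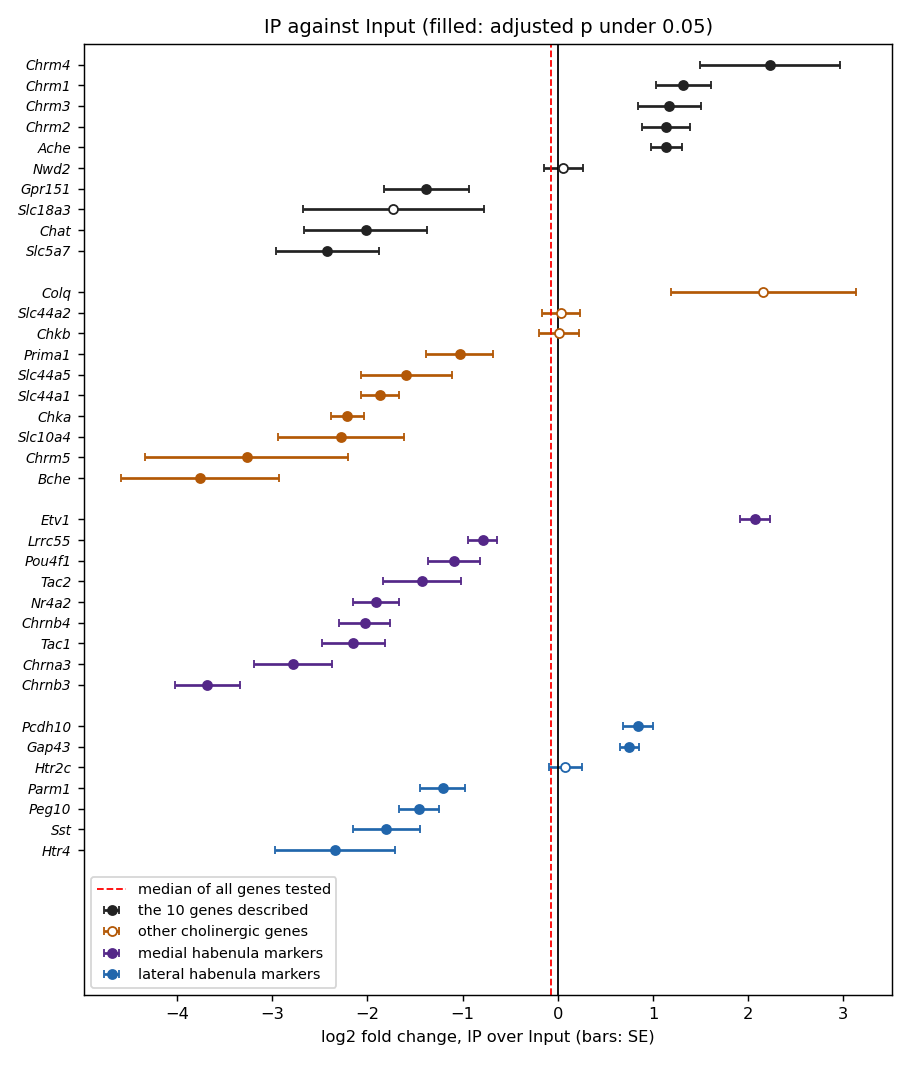
Log2 fold change of IP over Input with SE for the 10 genes, other cholinergic genes and markers of the medial and lateral habenula, filled where the adjusted p was under 0.05, and the median of all genes tested as a dashed line. Chrm1, Chrm2, Chrm3, Chrm4 and Ache lie between 1.14 and 2.23, Chrm5 among the other cholinergic genes lies at -3.27, and 8 of 9 medial habenula markers lie below 0.

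Among 13 Gq-side genes, which act behind the muscarinic receptors, 5 were higher and 3 lower in IP (median log2 fold change 0.13). Of all genes tested, 23.3% were higher and 24.3% lower. The M-type channel subunit Kcnq5 rose most, from 18.8, 16.1 and 18.4 CPM to 118, 74.5 and 90.1 CPM (2.41, SE 0.17, edgeR adjusted p = 9.76e-06), while phospholipase C beta 3, Plcb3, fell from 3.64, 7.37 and 5.40 CPM to 0.320, 0.545 and 2.42 CPM (-2.33, SE 0.72, adjusted p = 0.0242). The calcium release channel Itpr1 fell as well (-0.71, SE 0.13, adjusted p = 0.00205), from 148, 161 and 149 CPM to 73.9, 105 and 101 CPM. The third lower gene was phospholipase C beta 2, Plcb2, with 32, 41 and 62 counts in Input and 0, 3 and 0 counts in IP (edgeR adjusted p = 0.00596). It lies under the mean level set for named genes and is named here after its values were seen. Plcb3 lost its call when IP replicate 2 (adjusted p = 0.0574), Input replicate 2 (0.0988) or 3 (0.0612), or the replicate number 1 (0.0526) or 2 (0.184) was left out, and was -3.65 without IP replicate 3. The related Plcb4 (387 to 415 CPM in Input and 426 to 453 CPM in IP) and Gnaq (adjusted p = 0.302) did not pass. Under library totals, and without replicate number 3, 3 of the Gq-side genes were higher.

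Among 12 Gi-side genes 6 were higher and 0 lower (median log2 fold change 0.29), beside 23.3% and 24.3% of all genes tested. At an unadjusted p under 0.05 edgeR's test gave 1 lower gene, and at the adjusted threshold DESeq2, limma-voom and the replicate block each called 1 lower, as did the fits without IP replicate 1, IP replicate 3 or the replicate number 1. Upper-quartile scaling and library totals each called 2 lower. The inward rectifier subunit Kcnj5 rose most, from 13.0, 14.0 and 16.3 CPM to 40.8, 45.7 and 54.7 CPM (1.70, SE 0.16, edgeR adjusted p = 3.91e-05), and Kcnj3 had 66.9, 70.1 and 58.2 CPM in Input and 145, 88.6 and 95.9 CPM in IP (0.75, SE 0.18, adjusted p = 0.00699). The other subunits, Kcnj6 (-0.16, adjusted p = 0.541) and Kcnj9 (-0.18, adjusted p = 0.493), did not pass. Of 6 receptor kinases and arrestins, which switch off active receptors, 4 were higher, beside 23.3% of all genes tested. They were led by the kinases Adrbk1 (log2 fold change 1.03, SE 0.11, edgeR adjusted p = 6.90e-05) and Grk6 (0.82, SE 0.16, adjusted p = 0.00291). In this list 2 were higher under upper-quartile scaling, library totals and without replicate number 2 or 3.

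The genes whose levels over the 6 libraries ran closest to those of Chrm4, the member that rose most, were F630042J09Rik, Tnfaip3 and Adck1, with a root mean square difference in centred log2 levels of 0.28, 0.31 and 0.31. Those closest to Slc5a7, the member that fell most, were AK037159 (0.21), AK040505 (0.22) and Btbd17 (0.24). These are descriptions over 6 libraries that share the split into IP and Input.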

How the data were processed

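The authors deposited unnormalised counts, 1 file for each of 6 libraries. Alignment used STAR 2.0.0e and mm10, and counting used HTSeq, per the submitters' processing notes. Strand setting, annotation and the version of HTSeq are not given in the sources used here. Closing lines tied to no gene (53.22 to 59.82% of all lines' sum) and a line named unknown were left out. Of that sum, alignments that were not unique made up 43.2 to 49.72% in IP and 32.67 to 34.02% in Input. Ambiguous ones made up 1.32 to 1.58% in IP and 5.47 to 6.6% in Input. Genes with counts numbered 16561 to 17206 in IP libraries and 19933 to 20832 in Input libraries. In R 4.3.3, edgeR 4.0.16 fitted IP against Input by robust quasi-likelihood with TMM scaling on 16898 genes that passed filterByExpr (minimum count 10), with Benjamini-Hochberg adjustment over all of them and a threshold of 0.05. SE were derived from the F statistic. Ratios between genes within a library used a pseudocount of 0.5. Positions and exon lengths are from GENCODE M21 on the same build (mm10, GRCm38). Alternatives used limma 3.58.1 and DESeq2 1.42.0 as well as other scalings and filters.

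Groups and replicate numbers came from the titles. Each replicate number was also a sequencing lane (1, 5 and 6), so the labels pair IP and Input by lane. Deviations from group means correlated between same-numbered libraries by 0.09, 0.04 and 0.02 over 16898 genes. Between IP and Input libraries of different numbers the correlations were -0.06 to 0.03. The summed level of choroid plexus and ependymal markers was lowest in replicate number 1 in both groups (24.0 CPM in Input and 5.54 CPM in IP). The replicate number was used as a block in an alternative fit. All 10 genes were named, and in each of the 4 pathway lists the 2 called genes of largest absolute log2 fold change with a mean of at least 1 CPM, plus the 3 closest profiles of 2 members. Further genes were named after their values were seen. The members and lists were chosen with earlier results of these data known. Some genes are not reported here.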

Additional observations from a re-analysis of the deposited data

How the results depend on the processing

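Over 17 alternatives for each of the 10 genes, 141 of 170 fits kept direction and call, 25 lost a call and 4 turned the sign, all 4 for Nwd2 (-0.12 under upper-quartile scaling, -0.19 under library totals, -0.14 without Input replicate 1 and -0.20 without replicate number 1). Library totals called 2458 genes higher in place of 3930, and 3 of the 10 genes higher in place of 5. Upper-quartile scaling called 2887 higher and 4981 lower, and library totals 5240 lower. With libraries or replicate numbers left out, genes higher ran from 2659 to 4392, genes lower from 3017 to 5066, the 10 genes higher from 3 to 5 and lower from 0 to 3. With the replicate block, 3793 genes were higher and 4038 lower, and of the 10 genes 4 were higher and 3 lower: Chrm4 lost its call and no other of the 10 changed. With 1 library left out, the Chrm1 to Chrm2 shift ran from -0.09 to 0.63, Chrm2 to Chrm3 from -0.42 to 0.37 and Slc18a3 to Chat from -0.53 to 0.49.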
